A study of Mus musculus with 18 samples.

Results

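The genes described here belong to the circadian clock and its output: Per1, Per2, Per3, Cry1, Cry2, Arntl (also called Bmal1), Clock, Nr1d1, Nr1d2 and Dbp. They were taken from the platform annotation by gene symbol, and every probe of each gene was kept, which gave 10 genes and 19 probes of the 19057 named genes and 45281 probes on the array. The study measured mRNA in C2C12 myotubes, multinucleate muscle-like cells that form when the mouse myoblast line C2C12 is differentiated, on Illumina mouseWG-6 bead arrays. It asked which genes respond to the glucocorticoid receptor, the nuclear receptor for cortisol-like hormones. Myotubes were given 1 uM of dexamethasone (Dex), a synthetic glucocorticoid, for 6 h (4 arrays) or 24 h (5 arrays). At each time they were compared with myotubes given the ethanol vehicle alone (4 arrays at 6 h, 5 arrays at 24 h). Ethanol stood at 0.01% of the medium volume in both the Dex and the vehicle cultures. All cultures were kept in DMEM with 2% horse serum and come from this single cell line. Each treatment is said to have been done in triplicate, but 4 or 5 labelled samples stand in each group here and all were used. The labels do not say whether replicates are separate cultures; the p-values rest on array-to-array spread, which may be technical.

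In mammals, ARNTL and CLOCK pair to bind E-box sequences and switch on the Per, Cry, Nr1d and Dbp genes. PER and CRY proteins then return to the nucleus and repress ARNTL and CLOCK, and the NR1D proteins (REV-ERB alpha and beta) repress Arntl through ROR elements, which closes a second loop. Glucocorticoids are a known daily timing signal for clocks in peripheral tissues, and Per1 is a textbook direct target of their receptor. Cultured cells that are not synchronised run out of phase with each other, so that a level measured on a whole culture is an average over many phases.

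The labels were checked on markers. Fkbp5, a receptor co-chaperone and standard glucocorticoid target, was 3.93 higher on the log2 scale with Dex at 6 h and 3.40 higher at 24 h. Of 11 myotube markers 9 were measured, among them Acta1, Tnnc2 and Des, and all 9 lay well above the array median. Of the 4 myoblast and satellite cell markers, Pax7, Pax3 and Myf5 lay close to the array median and Msc above it, at 178.5 with Dex and 185 with ethanol at 6 h and at 241 and 189.5 at 24 h. Of the 3 smooth muscle markers, Myh11 and Cnn1 lay close to the array median while Acta2, an actin gene that myogenic cells also express, was bright. The measured markers of adipocytes, macrophages, endothelial cells and neurons lay close to the array median. Of the measured osteoblast markers, Sp7 and Ibsp also lay close to it. Alpl averaged 113 with Dex and 109.7 with ethanol at 6 h, and Bglap 109.2 and 131. The 24 h averages were 92.7 and 91.7 for Alpl and 88.9 and 94.7 for Bglap. Array medians ranged from 99.8 to 100.4 intensity units at 6 h and from 85.2 to 86.8 at 24 h, so the times appear to have been normalized apart. Levels are therefore compared within a time only. In RNA from a whole culture, fewer cells of a type and less RNA per cell cannot be told apart.

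Promoter windows show which clock sequences lie at the starts of these genes. RefSeq windows (build GRCm38.p6), reaching from 250 bases before to 50 bases after an annotated start, were found for 9 of the 10 genes, 13 windows in all, with none for Per2. The 3 shown belong to the gene that rose at both times, the gene that fell at both times, and Nr1d1, whose product represses Arntl. Per1 and Arntl each have another window, and for both the window that holds a match is shown. A link between the changes of these genes was not tested. Capitals mark every match, on either strand, to the E-box CACGTG, the related E'-box CACGTT, the D-boxes TTATGTAA and TTACGTAA, the ROR element core AGGTCA, the cAMP response element TGACGTCA or the glucocorticoid response element (G, any base, ACA, any 3 bases, TGT, any base, C). No match overlapped another.
Per1, chr11:69098699-69098998, plus strand: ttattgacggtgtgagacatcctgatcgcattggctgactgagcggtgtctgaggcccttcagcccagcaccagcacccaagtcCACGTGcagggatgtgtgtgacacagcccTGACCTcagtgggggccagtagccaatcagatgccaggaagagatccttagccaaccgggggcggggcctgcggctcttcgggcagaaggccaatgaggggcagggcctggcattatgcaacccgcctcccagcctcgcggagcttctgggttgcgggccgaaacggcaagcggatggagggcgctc
Arntl, chr7:113207261-113207560, plus strand: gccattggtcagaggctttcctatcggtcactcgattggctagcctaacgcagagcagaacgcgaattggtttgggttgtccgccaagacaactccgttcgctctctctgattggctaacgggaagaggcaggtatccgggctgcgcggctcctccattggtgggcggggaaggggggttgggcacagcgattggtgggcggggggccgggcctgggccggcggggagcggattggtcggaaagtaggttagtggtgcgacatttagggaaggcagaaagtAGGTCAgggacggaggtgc
Nr1d1, chr11:98775328-98775627, minus strand: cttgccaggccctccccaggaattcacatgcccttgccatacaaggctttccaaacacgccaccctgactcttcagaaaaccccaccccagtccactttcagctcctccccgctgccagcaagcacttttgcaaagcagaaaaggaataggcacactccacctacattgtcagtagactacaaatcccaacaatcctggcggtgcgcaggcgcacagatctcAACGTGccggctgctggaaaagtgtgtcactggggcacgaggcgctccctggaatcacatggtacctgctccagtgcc
The Per1 window holds an E-box and, read on the other strand, a ROR element core. The Arntl window holds a ROR element core just after the start, and the Nr1d1 window an E'-box just before it. An E-box was found in 2 of the 9 genes (Per1 and Cry1), an E'-box in 3 (Cry1, Cry2 and Nr1d1), a ROR element core in 4 (Per1, Arntl, Clock and Nr1d2) and a D-box in 1 (Per3, with 2 copies). The Dbp window, the other Per1 and Arntl windows and 2 of the 3 Clock windows held no match. Counted by window, the E-box lies in 2 of the 13 windows, the E'-box in 3, the ROR element core in 4 and the D-box TTATGTAA in 1. Of 32851 mouse windows of the same length, 7.15% hold the E-box, 4.68% the E'-box, 0.938% the D-box TTATGTAA, 0.119% the D-box TTACGTAA and 16.3% the ROR element core. These shares are per window, and a gene with several windows has more than 1 place for a match. The cAMP response element and the glucocorticoid response element occur in 1.79% and 0.475% of them and in 0 of the 13 windows of these genes. At such shares 0 in 13 windows is the likely count. Sequence beyond the windows was not searched, so the 0 does not show that a gene lacks these elements. A match is a run of letters and not a measured binding site.

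At 6 h with Dex, Per1 and Per2 rose and Arntl fell, while at 24 h Per1 was still raised, Arntl was still lowered, Per2 was back at the ethanol level and a low-intensity Clock probe was higher. At 6 h, 5 of the 19 probes were called higher and 1 lower with limma at an adjusted p under 0.05 over all 45281 probes, against 1.54% and 1.5% of all probes (3.04% in either direction). At 24 h the counts were 3 higher and 1 lower, against 3.18% and 3.09% of all probes (6.28% in either direction). Dex and ethanol arrays did not overlap, with Dex higher, for 5 probes at 6 h and 3 at 24 h, against 4.51% and 6.99% of all probes, and with Dex lower for 2 at each time, against 4.73% and 6.71% (9.24% at 6 h and 13.7% at 24 h in either direction). The median log2 fold change of the 19 probes was 0.01 at 6 h and 0.05 at 24 h, next to 0.00 at both times over all probes. By gene, 3 of 10 had a called probe at each time, against 5.23% of named genes at 6 h and 11% at 24 h, and 6 had none at either. Of the 19 probes, 7 averaged no more than 25% above the array median in all 4 groups and are called dim here, as did 64.4% of all probes. No detection values were used here, so such probes are not known to be above background and their fold changes may be understated. The plot of effects shows each probe with its interval.

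**Figure D1:**
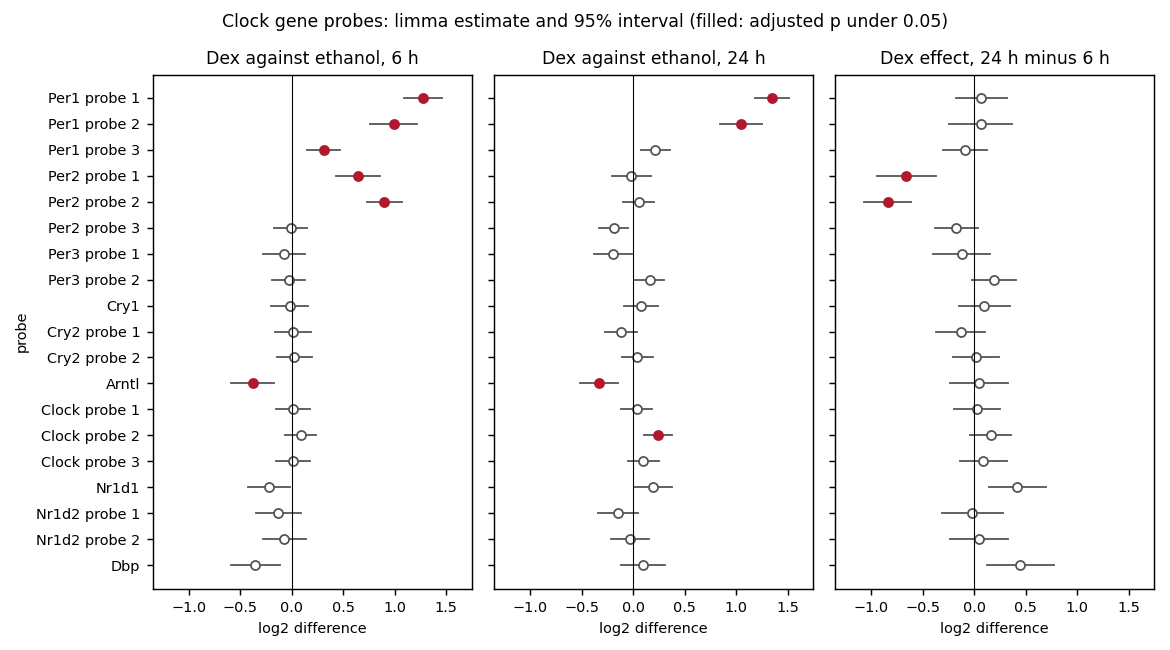
Log2 difference (x axis) for each of the 19 clock gene probes (y axis, numbered by brightness within a gene), with 95% intervals from the limma model, for Dex over ethanol at 6 h, at 24 h, and for the change of that effect between the times. Filled points passed an adjusted p of 0.05: Per1, Per2 and Arntl at 6 h, Per1, Arntl and the second Clock probe at 24 h, and 2 Per2 probes for the change.

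Per1, a repressor in the negative arm of the clock, gave the largest change among these genes, and the change was as large after 24 h as after 6 h. Its brightest probe (ILMN_2813484) read 624, 567, 578 and 554 in the Dex arrays at 6 h, against 248, 246, 237 and 229 in the ethanol arrays. All 4 Dex arrays therefore lay above every ethanol array by more than the whole spread within a group. The log2 fold change was 1.27 (SE 0.09, limma adjusted p = 4.96e-10), a 2.42-fold rise. At 24 h this probe read 522, 526, 470.4, 612 and 593 with Dex, against 219, 223, 233, 182 and 214 with ethanol, again without overlap. The log2 fold change at 24 h was 1.35 (SE 0.08, limma adjusted p = 1.80e-11). The effects at 24 h and 6 h differed by 0.07 on the log2 scale (95% interval -0.18 to 0.32, limma adjusted p = 0.871).

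The second Per1 probe (ILMN_2813487), annotated to the same RefSeq transcript, averaged 279 ± 49.96 with Dex and 139 ± 6.95 with ethanol at 6 h (SD, n = 4 each). At 24 h it averaged 254 ± 27.0 with Dex and 123 ± 13.1 with ethanol (SD, n = 5 each). Its log2 fold changes were 0.99 (SE 0.11) and 1.05 (SE 0.10), both called. The third Per1 probe (ILMN_1249997), annotated to a separate GenBank cDNA, was dim and moved less. It averaged 116 ± 8.98 with Dex and 93.3 ± 3.37 with ethanol at 6 h (SD, n = 4 each), and the log2 fold change was 0.31 (limma adjusted p = 0.0261), and 0.22 at 24 h (limma adjusted p = 0.0658). Its 6 h call was lost without ethanol replicate 3 (adjusted p = 0.0614), Dex replicate 2 (0.0757) or Dex replicate 3 (0.0551), and its 24 h value passed without ethanol replicate 5 (0.0251) or Dex replicate 5 (0.0436).

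Per2, the other PER protein that the core repressor complex needs, rose at 6 h only. Its brightest probe (ILMN_2987863) read 654, 667, 755 and 711 with Dex at 6 h, against 456, 354, 518 and 472 with ethanol. The Dex arrays all lay above the ethanol arrays, which were themselves spread more widely. The log2 fold change was 0.64 (SE 0.10, limma adjusted p = 0.000282). Its second probe (ILMN_2987862) read 591, 631, 611 and 599 with Dex at 6 h, against 319.7, 324, 319 and 346 with ethanol, and the log2 fold change was 0.89 (SE 0.08, limma adjusted p = 5.98e-08).

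At 24 h the brightest Per2 probe read 276, 328, 305, 303 and 350 with Dex, against 355, 322, 296, 311 and 295 with ethanol. The groups overlapped fully, and the log2 fold change was -0.02 (95% interval -0.21 to 0.17, limma adjusted p = 0.949). For the second probe the 24 h value was 0.05 (95% interval -0.10 to 0.21, limma adjusted p = 0.754). The loss of the effect was tested directly. The Dex effect at 24 h minus that at 6 h was -0.66 (SE 0.14, limma adjusted p = 0.0204) for the brightest probe and -0.84 (SE 0.11, limma adjusted p = 0.000146) for the second. Of all 45281 probes, 0.384% were called lower in this test and 0.819% in either direction, and these were the only 2 of the 19 clock probes called in it. The third Per2 probe (ILMN_1258523) was dim, at 96.2 ± 2.04 with Dex and 97.1 ± 4.38 with ethanol at 6 h (SD, n = 4 each), and was not called. The 24 h averages were 71.9 ± 4.20 with Dex and 81.9 ± 6.22 with ethanol (SD, n = 5 each), and the log2 fold change of -0.19 was not called either (limma adjusted p = 0.114).

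**Figure D2:**
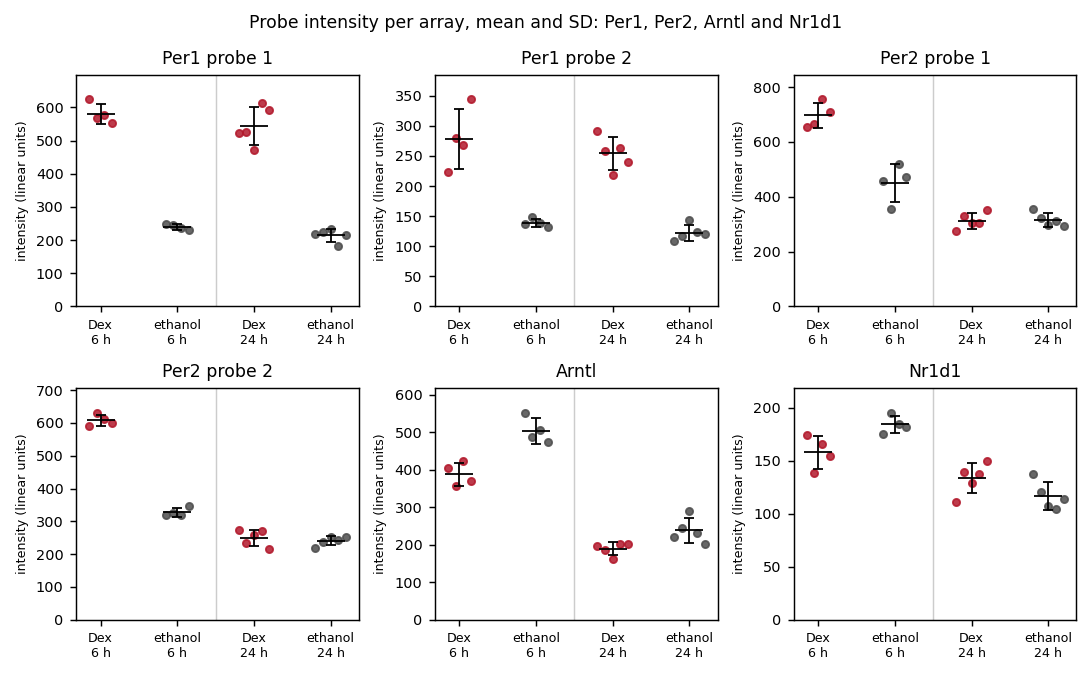
Intensity in linear units (y axis, from 0) of 6 probes in each array of the 4 groups (x axis), with Dex in red, ethanol in grey and black bars for the mean and SD. Both Per1 probes are higher with Dex at both times, both Per2 probes at 6 h only, and Arntl is lower with Dex at both times, by a narrow gap at 24 h.

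For Per3, a PER family member that the core oscillator can run without, neither probe was called. The brighter probe (ILMN_1257393) averaged 107 ± 15.7 with Dex and 113 ± 11.1 with ethanol at 6 h (SD, n = 4 each). At 24 h it read 91.1, 102, 102, 102 and 95.6 with Dex, against 124, 110.5, 103, 104 and 124 with ethanol. These groups did not overlap, the highest Dex array lying just under the lowest ethanol array, and the log2 fold change of -0.20 missed the threshold (95% interval -0.38 to -0.01, limma adjusted p = 0.222). The other Per3 probe (ILMN_1251591), a dim one, averaged 98.9 ± 4.30 with Dex and 101 ± 5.87 with ethanol at 6 h (SD, n = 4 each). The 24 h averages of ILMN_1251591 were 92.2 ± 6.10 with Dex and 82.4 ± 3.38 with ethanol (SD, n = 5 each), and its log2 fold change of 0.16 ran the other way (95% interval 0.02 to 0.30, limma adjusted p = 0.185). 

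The cryptochromes, which with PER proteins block ARNTL and CLOCK, gave no call. The brighter Cry2 probe (ILMN_2665681) averaged 177 ± 6.97 with Dex and 176 ± 21.4 with ethanol at 6 h (SD, n = 4 each), and the log2 fold change was 0.01 (95% interval -0.16 to 0.19). At 24 h it averaged 132 ± 8.66 with Dex and 143 ± 6.37 with ethanol (SD, n = 5 each), and the log2 fold change was -0.12 (95% interval -0.28 to 0.04, limma adjusted p = 0.421). The second Cry2 probe (ILMN_1256483) was dim, with log2 fold changes of 0.02 at 6 h and 0.04 at 24 h. The only Cry1 probe (ILMN_2618668) averaged 87.9 ± 5.48 with Dex and 89.4 ± 6.25 with ethanol at 6 h (SD, n = 4 each). That reading lies below the array median of about 100, and at 24 h the probe read 70.7 ± 8.03 and 67.1 ± 4.75 (SD, n = 5 each) with Dex and ethanol. Cry1 was the only one of the 10 genes with no probe above the dim range, and a change in it may not be detectable on this array.

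Arntl, which encodes the partner of CLOCK in the activating arm, fell with Dex at both times. Its only probe (ILMN_2707510) read 405, 356, 422 and 369 with Dex at 6 h, against 552, 486, 505 and 473 with ethanol. The highest Dex array lay below the lowest ethanol array, and the log2 fold change was -0.38 (SE 0.10, limma adjusted p = 0.0374), or 0.769 of the ethanol level. At 24 h it read 195, 185, 161, 202 and 202 with Dex, against 221, 245, 291, 232 and 202 with ethanol. The groups again did not overlap, but the nearest arrays read 202.1 with Dex and 202.4 with ethanol, and the log2 fold change was -0.33 (SE 0.09, limma adjusted p = 0.0277). The effects at the times differed by 0.05 (95% interval -0.23 to 0.33, limma adjusted p = 0.928).

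The Arntl calls sit near the threshold. At 6 h the call was lost without ethanol replicate 1 (log2 fold change -0.33, adjusted p = 0.0838), ethanol replicate 3 (0.0661), Dex replicate 2 (0.107) or Dex replicate 4 (0.0668), and at 24 h without ethanol replicate 2 (0.0532), ethanol replicate 3 (-0.26, 0.0736) or Dex replicate 3 (-0.27, 0.0746). Over the alternatives, values ran from -0.42 to -0.33 at 6 h and from -0.39 to -0.26 at 24 h. Several alternatives, such as the fit without covariates, cannot move the fold change, so the shared sign adds little. The Arntl call was kept in 13 of 20 alternatives at 6 h and 20 of 23 at 24 h. Together with 2 Per1 probes, 3 of the 19 clock probes were called in the same direction at both times, against 1.39% of all probes.

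Clock itself, the DNA-binding partner of ARNTL, did not pass the test on its bright probe at either time. That probe (ILMN_2610973) averaged 2134 ± 84.6 with Dex and 2123 ± 150 with ethanol at 6 h (SD, n = 4 each), and 1529 ± 123 with Dex and 1490.3 ± 67.1 with ethanol at 24 h (SD, n = 5 each). The log2 fold changes were 0.01 (95% interval -0.16 to 0.17) and 0.03 (95% interval -0.11 to 0.18). The second Clock probe (ILMN_2600964), annotated to the same transcript, read 120.3, 108, 117, 119.9 and 115 with Dex at 24 h, against 96.2, 101, 98.5, 97.8 and 96.1 with ethanol. These groups did not overlap and the log2 fold change of 0.24 was called (SE 0.06, limma adjusted p = 0.0221). The 2 probes thus differ in whether Clock was called at 24 h. Their 95% intervals overlap (0.11 to 0.38 for the second probe), which does not show that the probes agree. The difference between the probes was not tested. The third Clock probe (ILMN_2589603) was dim and called at neither time. Its log2 fold change at 24 h was 0.10 (limma adjusted p = 0.512). At 24 h Cdk1, a cell division kinase, was also higher with Dex (0.43), Myog, a myogenic regulator, was lower (-0.32) and Ckm, the muscle creatine kinase, higher (0.30). The summed level of the 2 measured proliferation markers ranged from 616 to 799 over the Dex arrays and from 509 to 635 over the ethanol arrays at 24 h, while the summed myotube markers overlapped. Of those 2 proliferation markers, Top2a, a DNA topoisomerase gene, averaged 166 with Dex and 190.0 with ethanol at 24 h (log2 fold change -0.19, limma adjusted p = 0.166), so the higher sum came from Cdk1. The part of these shifts in the clock results was not tested.

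Nr1d1, which encodes the repressor REV-ERB alpha, gave estimates of opposite sign at the times and passed the test at neither. Its probe (ILMN_2749669) read 174, 138, 166 and 155 with Dex at 6 h, against 176, 195, 184 and 181 with ethanol. Every Dex array was below every ethanol array and the log2 fold change was -0.23 (95% interval -0.43 to -0.02, limma adjusted p = 0.309). At 24 h it read 111, 139, 129, 138 and 149.6 with Dex, against 137, 120.1, 107, 105 and 114 with ethanol, with a log2 fold change of 0.20 (95% interval 0.01 to 0.38, limma adjusted p = 0.221). The 24 h groups overlapped. The difference between the effects was 0.42 (SE 0.13, limma adjusted p = 0.151) and was not called.

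Nr1d2, which encodes the related REV-ERB beta, was lower with Dex by values inside the spread. Its brighter probe (ILMN_2798993) averaged 602 ± 58.3 with Dex and 666 ± 125 with ethanol at 6 h (SD, n = 4 each), and the log2 fold change was -0.13 (limma adjusted p = 0.681). At 24 h it averaged 313 ± 21.5 with Dex and 347 ± 26.5 with ethanol (SD, n = 5 each), and the log2 fold change was -0.15 (limma adjusted p = 0.423). The second Nr1d2 probe (ILMN_2602387) was dim and called at neither time. Its log2 fold changes were -0.07 at 6 h and -0.03 at 24 h.

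Dbp encodes a transcription factor that acts on D-boxes and is among the most strongly cycling outputs of the clock in liver. Its probe (ILMN_2616226) read 2005, 1893, 1759.5 and 1519.5 with Dex at 6 h, against 2628, 2664, 1894 and 2050.1 with ethanol. The highest Dex array lay above the lowest ethanol array, and the log2 fold change of -0.36 was not called (95% interval -0.60 to -0.11, limma adjusted p = 0.117). Leaving out single arrays gave values from -0.45 without ethanol replicate 3 (limma adjusted p = 0.0349), the lowest of its group, to -0.28 without Dex replicate 4 (limma adjusted p = 0.255), the lowest of its group. At 24 h Dbp averaged 2124 ± 167 with Dex and 1998 ± 263 with ethanol (SD, n = 5 each), and the log2 fold change was 0.09 (limma adjusted p = 0.689). The difference between the effects, 0.45 (95% interval 0.13 to 0.77), was not called either (limma adjusted p = 0.204).

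**Figure D3:**
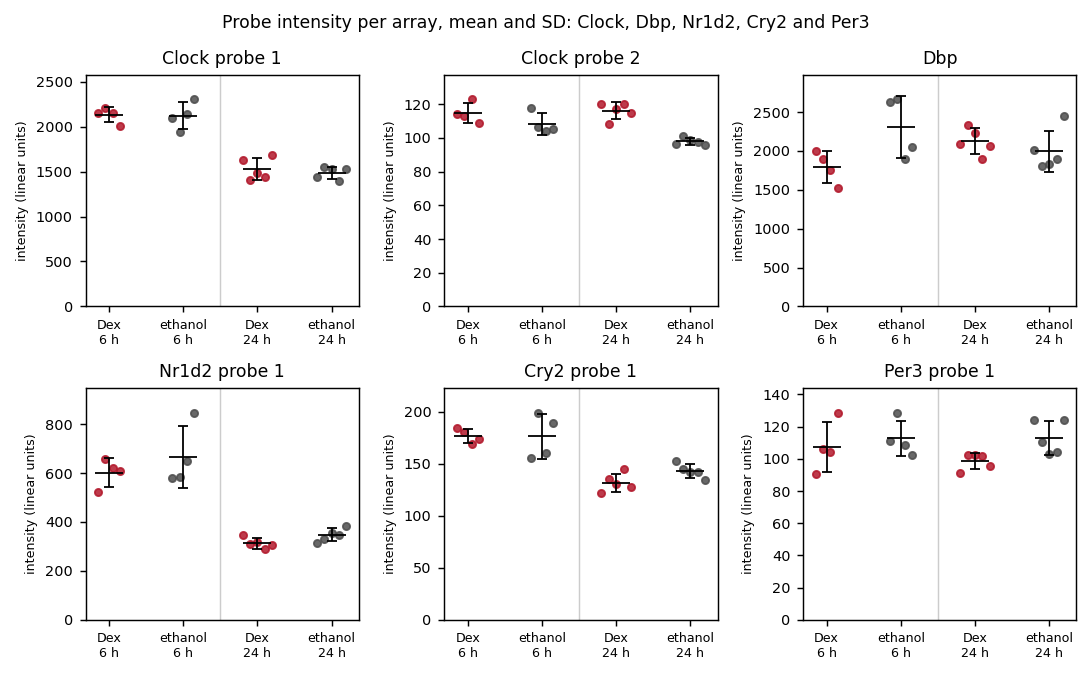
Intensity in linear units (y axis, from 0) of the brightest probes of Clock, Dbp, Nr1d2, Cry2 and Per3 and of the second Clock probe in each array of the 4 groups (x axis), with Dex in red, ethanol in grey and black bars for the mean and SD. The second Clock probe and the Per3 probe have groups that lie apart at 24 h, and Dbp is lower in most but not all Dex arrays at 6 h.

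Beyond the genes above, 21 further clock-linked genes, grouped by role, were analysed with 52 probes. At 6 h 3 of the 21 genes had a probe called higher and 1 lower, against 2.6% and 2.63% of named genes, and at 24 h 1 had a probe called higher and 1 lower, against 5.5% and 5.5%. The median log2 fold change of their probes was 0.05 at 6 h and 0.04 at 24 h. Of these genes 17 had no probe called at either time. They include Rora, an activator at ROR elements, Npas2, which can replace CLOCK, the E-box repressor Bhlhe41, and the casein kinase genes Csnk1d and Csnk1e, whose products phosphorylate PER proteins. The only Npas2 probe was dim, so a change in Npas2 may not be detectable on this array.

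Bhlhe40, which encodes DEC1, a repressor that competes for E-boxes, fell at both times. Its probe read 4395, 4590.1, 4418 and 5136 with Dex at 6 h, against 5677, 6476, 8101 and 8626 with ethanol. All Dex arrays lay below all ethanol arrays, and the log2 fold change was -0.62 (SE 0.11, limma adjusted p = 0.000846). At 24 h the probe averaged 2572 ± 248 with Dex and 3255 ± 186 with ethanol (SD, n = 5 each), and the log2 fold change was -0.34 (limma adjusted p = 0.0349). The 24 h call was lost without ethanol replicate 2 (adjusted p = 0.0612), ethanol replicate 5 (0.0729), Dex replicate 2 (0.0775) or Dex replicate 5 (0.0831).

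Usp2, a deubiquitinase gene whose mRNA cycles in many tissues and whose product acts on clock proteins, rose at both times. Its brightest probe read 2212, 2139, 2299.9 and 1978 with Dex at 6 h, against 1021, 963, 904 and 979 with ethanol, and the log2 fold change was 1.16 (SE 0.09, limma adjusted p = 6.82e-09). At 24 h the value was 1.05 (SE 0.08, limma adjusted p = 3.88e-09). Of its other 3 probes, 2 were called higher at 24 h, by 0.43 and 0.39, and none at 6 h.

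Tef, a D-box activator related to Dbp, averaged 2360 ± 468 with Dex and 1616 ± 262 with ethanol at 6 h on its brighter probe (SD, n = 4 each). It was called (log2 fold change 0.54, SE 0.13, limma adjusted p = 0.0143) although the lowest Dex array, at 1717, lay below the ethanol arrays at 1842 and 1837. The Tef call was lost without ethanol replicate 2 (adjusted p = 0.0523) or Dex replicate 2 (0.0683), with the 6 h arrays fitted alone (0.0502), and on the mean of both Tef probes (0.26, adjusted p = 0.161). Nampt, whose product makes a precursor of the NAD that sirtuins use, averaged 328 ± 27.4 with Dex and 242 ± 33.5 with ethanol at 6 h (SD, n = 4 each). Its log2 fold change was 0.45 (limma adjusted p = 0.0244). The Nampt call was lost without ethanol replicate 2 (0.0822), Dex replicate 2 (0.0864) or Dex replicate 3 (0.0524), and on the mean of both Nampt probes (0.21, adjusted p = 0.181). At 24 h neither was called, at 0.16 for Tef and 0.21 for Nampt, and each has another, dim probe that was called at neither time.

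**Figure D4:**
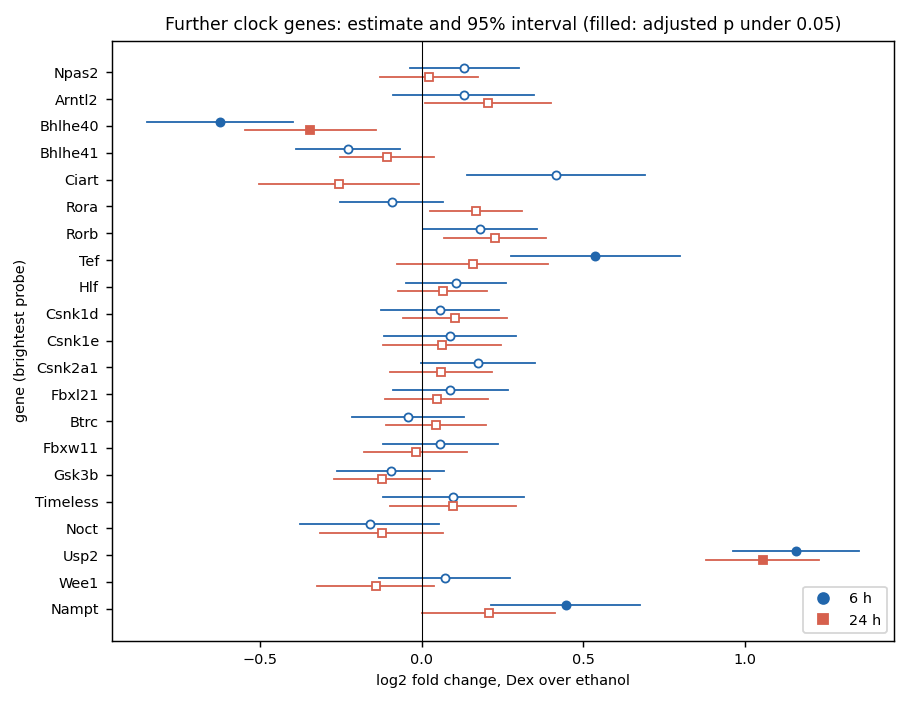
Log2 fold change of Dex over ethanol (x axis) for the brightest probe of each of the 21 further clock genes (y axis) at 6 h (blue circles) and 24 h (red squares), with 95% intervals from the limma model. Filled symbols passed an adjusted p of 0.05: Usp2 higher and Bhlhe40 lower at both times, Tef and Nampt higher at 6 h.

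The genes whose pattern over the 18 arrays was most like that of a clock gene were found by Pearson correlation after each time's mean was taken off, among 18952 named probes above the median intensity. For the brightest Per1 probe they were Zc3h3 (r = 0.988), the lipid droplet coat gene Plin4 (r = 0.986) and the kinase gene Sgk1 (r = 0.985), whose own log2 fold changes with Dex were 0.99, 3.12 and 1.71 at 6 h and 1.09, 2.88 and 1.54 at 24 h. For the brightest Per2 probe they were Tfdp2 (r = 0.902), Preb (r = 0.893) and Rassf4 (r = 0.881), each of which was higher with Dex at 6 h by 0.31, 0.65 and 0.56, with 0.04, 0.09 and 0.05 at 24 h. For Arntl they were Mcm6 (r = 0.915), Evi2a (r = 0.908) and Prpf38b (r = 0.899), with -0.24, -0.44 and -0.23 at 6 h and -0.31, -0.53 and -0.40 at 24 h. The arrays share the Dex contrast and, within a time, a normalization, so these correlations describe the shape of the response over the same 18 arrays.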

How the data were processed

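The authors deposited 1 intensity per probe and array on a linear scale; the submitters' processing notes name lumi. Its version, the background correction and the normalization are not given in the sources used, and no scanner files or chip numbers were used. Log2 was taken with a pseudocount of 0 and no filter. All 45281 probes on 18 arrays were modelled by their 4 group means with limma 3.58.1 (lmFit, eBayes) in R 4.3.3, with Benjamini-Hochberg adjustment over all probes and a threshold of 0.05. SE and 95% intervals come from this model, and the number of arrays limits the precision.

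The deviations of arrays from their group means hold close to no spread in 1 direction at 6 h and 3 at 24 h (under 0.01% each, over 1126 probes with a mean log2 value above 12). These were entered as covariates, which leaves 10 residual degrees of freedom in place of 14 and moves no fold change. Whether terms were removed before deposit is not given in the sources used, and the part of such a step in the p-values was not tested. The model was also run on simulated data built with the same empty directions, which cannot show how its p-values hold on the real arrays. Probes with 1 symbol numbered 34885, and 34807 symbols were updated to GRCm38.p6. Genes named with values beside the 10 members were cell type markers, those called in a further list of 21 analysed genes, 2 checks of the Dex label (Fkbp5, and Tsc22d3, whose brightest probe was 1.69 higher with Dex at 6 h and 1.43 at 24 h) and the 3 most similar genes of Per1, Per2 and Arntl. Member genes, lists and motifs were chosen with earlier results of these data known. Alternatives were no covariates, arrays of a time alone, probe summaries, quantile normalization, normexp, a pseudocount of 16, a filter on dim probes, replicate blocks, array weights, a variance trend and leaving out arrays. Same-numbered arrays correlated in their deviations from 0.17 to -0.11 at 6 h and from -0.18 to -0.91 at 24 h, so by the rule that every pair exceed 0.1 the numbers were not taken as pairs; why the 24 h pairs oppose each other was not tested.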

Additional observations from a re-analysis of the deposited data

Results flagged for a closer look

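The Dex effect on Per2 differed between the times in a test of the difference itself, by -0.66 on the log2 scale for the brightest probe and -0.84 for the second, both lower at 24 h than at 6 h. In 5 of 100 groups of 4 or 5 arrays of the probes named, an array stood far from the others. The cutoff of this rule is set to flag about 1 in 20 groups by chance, a rate that was not measured here. Of the 5, 4 lie on dim probes and the other on the second Clock probe. The second Cry2 probe read 94.3 in Dex replicate 4 at 6 h, with the others from 98.9 to 99.7, and 96 in ethanol replicate 4 at 24 h, with the others from 78 to 80.9. The second Clock probe read 118 in ethanol replicate 1 at 6 h, with the others from 104.3 to 106.3. The second Nr1d2 probe read 79.8 in Dex replicate 1 at 6 h, with the others from 94.5 to 97.3, and 96.2 in Dex replicate 3 at 24 h, with the others from 75.2 to 80.3.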

How the results depend on the processing

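Over all probes, 1378 were called at 6 h, 2842 at 24 h and 371 for the difference between the effects. Without the covariates the counts were 2836, 5726 and 1675, taking each gene's brightest probe gave 850, 1694 and 232 of 19057 genes, and averaging probes within a gene 641, 1452 and 115. Single arrays left out gave 1130 to 1684 calls at 6 h, 2334 to 2757 at 24 h and 323 to 637 for the difference, the last reaching 637 without ethanol replicate 1 and 594 without Dex replicate 4 at 6 h. With the replicate number as a block the counts were 2310, 4303 and 1254, and the block without the covariates gave 904 for the difference. The block made Dbp pass at 6 h (adjusted p = 0.0125) and Nr1d1 and Dbp for the difference (0.0334 and 0.0331), but same-numbered arrays did not deviate together. Without the covariates Dbp passed at 6 h (0.0485), the third probes of Per1 (0.0125) and Per2 (-0.19, 0.0277) at 24 h, and Nr1d1 for the difference (0.0461). No member value reversed among 1318 recomputed values, 14 lost and 15 gained a call, and 44 changed sign without a call. Alternatives such as dropping the covariates cannot move a fold change, so their values could not reverse. The 4 bright probes of Per1 and Per2 kept their 6 h calls in every alternative, both Per1 probes theirs at 24 h and both Per2 probes theirs for the difference. Averaged over its 3 probes, Per1 had 0.86 at 6 h and 0.87 at 24 h. Beside the arrays named above, Arntl lost its 6 h call with array weights (0.0681), a variance trend (0.0547) or gene means (0.0600). Leaving out both 24 h arrays numbered 1, chosen after seeing the data, gave Nr1d1 0.32 at 24 h (0.0135) and 0.54 for the difference (0.0155); these were its lowest Dex and highest ethanol arrays, so the larger value follows from the choice. No other alternative called Nr1d1 at 24 h. Low intensity limits what Cry1, Per3 and the weaker probes can show. The brighter Per3 probe lay only just above the dim range.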
